A study of Mus musculus with 23 samples.

Results

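Tmem26, Adcy8, Hunk, Cytip, Fndc4, Nfib and Pcdh18 were examined as genes outside the cell cycle whose RNA was lower in fibroblasts with wild-type p53. The members were chosen by measured values, the array levels in WT, QM and 25,26, as genes lower in WT than in QM or in 25,26 with no stated size limit, so those comparisons are given here as descriptions with no test. The 7 genes were 7 of 18193 genes measured and were carried by 19 probe sets. All 7 passed the filter on low values, as did 15266 of the 18193 genes. The choice itself fixed that the set is lower in WT than in QM or in 25,26 and holds none of the 19 measured genes of a list of mitosis genes, so neither is a check of the label. The data went against the label in part. The means of Nfib and Pcdh18 in WT and in 25,26 differed by little more than the SE or by less. With the mean level of the mitosis genes as a covariate, Pcdh18 was no longer lower in WT than in QM (0.10 ± 0.23) or in 25,26 (0.43 ± 0.18). That mean did not overlap between WT and QM and barely did between WT and 25,26. The fit therefore cannot separate it from the group and decides nothing about the label.

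RNA came from mouse embryonic fibroblasts, and every culture carried the retroviral oncogene H-Ras V12. In 25,26 the first transactivation domain of p53 was disrupted (5 arrays, p53 LSL-25,26 knock-in with Adeno-Cre), in 53,54 the second (3 arrays, p53 LSL-53,54 knock-in with Adeno-Cre) and in QM both (3 arrays, p53 LSL-QM knock-in with Adeno-Cre). WT joined 3 arrays of LSL-WT cells given Cre virus (LSL-WT Cre) and 3 of WT cells given Cre virus (WT Cre), and Null joined 3 arrays of LSL-WT cells given Empty virus (LSL-WT Empty) and 3 of Null cells given Cre virus (Null Cre). In LSL alleles a stop cassette keeps the gene silent until Cre removes it, so LSL-WT Empty served as cells without p53. Arrays are named below by kind and title number. The series text calls the replicates biological samples, and neither it nor the labels say whether they came from separate embryos, so every p-value measures the spread between these arrays. The genotype label of WT Cre 3 reads as an LSL-WT cell, against its title, and both readings were tried. The strain was 129 or mixed, in 4 and 1 arrays of 25,26, 1 and 2 of 53,54, 2 and 1 of QM, 3 and 3 of WT and 4 and 2 of Null.

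p53 is a transcription factor that is activated by stress and by oncogenes such as H-Ras. It raises its direct targets through its 2 transactivation domains. Many genes that fall when p53 is active are lowered indirectly, through the cell cycle inhibitor p21 and the DREAM repressor complex, which binds CHR elements in promoters of cell cycle genes. Of the 7 genes, Hunk encodes a serine/threonine kinase related to the AMP-activated kinase, and Adcy8 a calcium-stimulated adenylyl cyclase that makes the messenger cAMP. Cytip encodes a scaffold protein that binds cytohesins and is known from leukocytes. Tmem26 encodes a membrane protein used as a surface marker of beige adipocytes, Fndc4 a membrane-anchored protein with a fibronectin type III domain and Pcdh18 a protocadherin of the cell surface. Nfib encodes a DNA-binding factor of the nuclear factor I family.

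The RefSeq promoter table (GRCm38.p6) held entries for 5 of the 7 genes, and Adcy8 and Nfib had none there. The 250 bases before the start are shown for Tmem26, Hunk and Pcdh18, since these 3 genes fell together in the comparison that could be tested and each held at least 1 of the motifs searched. They lie at chr10:68723496-68723745 on the plus strand, chr16:90386147-90386396 on the plus strand and chr3:49757317-49757566 on the minus strand, and each is written 5′ to 3′ on the strand of its gene. Capitals mark matches to the CHR element TTTGAA, the CCAAT box CCAAT, the GC box GGGCGG, the TATA box TATAAA and the p53 half-site, searched on both strands.
Tmem26: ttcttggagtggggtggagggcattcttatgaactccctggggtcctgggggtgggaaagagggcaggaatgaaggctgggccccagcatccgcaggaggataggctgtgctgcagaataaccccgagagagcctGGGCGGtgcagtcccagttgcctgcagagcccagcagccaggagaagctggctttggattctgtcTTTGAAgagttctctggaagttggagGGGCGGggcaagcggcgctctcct
Hunk: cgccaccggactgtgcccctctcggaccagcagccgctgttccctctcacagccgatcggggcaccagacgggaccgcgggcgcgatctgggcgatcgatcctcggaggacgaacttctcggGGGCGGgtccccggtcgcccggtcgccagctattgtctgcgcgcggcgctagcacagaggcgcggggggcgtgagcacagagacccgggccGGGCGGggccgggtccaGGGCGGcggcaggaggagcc
Pcdh18: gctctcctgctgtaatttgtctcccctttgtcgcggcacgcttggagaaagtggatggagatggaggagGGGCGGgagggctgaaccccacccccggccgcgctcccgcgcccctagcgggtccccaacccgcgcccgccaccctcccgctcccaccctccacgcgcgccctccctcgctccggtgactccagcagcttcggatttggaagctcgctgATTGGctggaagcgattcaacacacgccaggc
Tmem26 held 1 CHR element, beginning 50 bases before the start, and 2 GC boxes. Hunk held 3 GC boxes, and Pcdh18 held 1 GC box and 1 CCAAT box, the latter on the opposite strand. The CHR element was present in the same window of 16% of 32851 promoters, the CCAAT box in 33.8%, the GC box in 32.7%, the TATA box in 12.4% and the p53 half-site in 7.13%. The matches did not overlap one another. No p53 half-site lay in the windows searched for the 5 genes, and those of Cytip and Fndc4 held none of the 5 motifs. Fndc4 had 2 entries in the promoter table, and only the first was searched for its motifs. These matches describe letters in a window and are not measured binding sites.

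A level is the log2 of the deposited array intensity of the gene's brightest probe set, and levels of different genes are not comparable with one another. All 7 genes had a lower mean in WT than in Null. The WT minus Null differences in log2 level ran from -2.39 for Cytip to -0.89 for Pcdh18, with a median of -1.57 against 0.00 for all genes. In these bulk samples, fewer cells of a type and less RNA per cell cannot be told apart.

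Tmem26 had its lowest, median and highest levels at 7.88, 8.37 and 8.77 in the 6 Null arrays and at 5.63, 6.31 and 6.83 in the 6 WT arrays. It lay at 8.49, 8.50 and 9.13 in QM, at 8.52, 7.84, 8.21, 8.68 and 8.45 in 25,26 and at 7.08, 7.48 and 7.67 in 53,54. The WT arrays were below all others, the 53,54 arrays formed a step between WT and the rest, and QM, Null and 25,26 overlapped. The log2 difference of WT was -2.40 ± 0.26 (SE) from QM, -2.04 ± 0.22 from 25,26 and -2.06 ± 0.21 from Null. Its second probe set lay near the filter, above it in 17 of 23 arrays, and gave a WT minus Null difference of -1.07 ± 0.16.

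Hunk lay at 7.58, 8.17 and 8.87 (lowest, median and highest) in Null and at 5.87, 6.66 and 6.99 in WT. Its levels were 8.44, 8.44 and 8.67 in QM, 8.33, 8.21, 7.89, 8.19 and 8.32 in 25,26 and 7.05, 6.66 and 7.31 in 53,54. The order of the means was QM, 25,26, Null, 53,54 and WT, where Null overlapped QM and 25,26, 53,54 overlapped WT, and a gap lay between these blocks. The difference of WT was -1.95 ± 0.22 from QM, -1.62 ± 0.19 from 25,26 and -1.59 ± 0.18 from Null.

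Cytip had the widest spread of the 7. Its lowest, median and highest levels were 9.11, 10.41 and 10.96 in Null and 5.31, 7.33 and 9.98 in WT. QM lay at 11.05, 10.16 and 10.69, 25,26 at 9.41, 9.78, 9.68, 10.44 and 9.86, and 53,54 at 7.87, 7.95 and 9.33. The WT arrays overlapped every other group except QM, with LSL-WT Cre 1 and LSL-WT Cre 3 as the high WT arrays, and 53,54 had 1 high array. The difference of WT was -2.87 ± 0.72 from QM and -2.06 ± 0.61 from 25,26. That from Null, -2.39 ± 0.59, was -1.15 with LSL-WT Cre alone as WT and -3.64 with WT Cre alone. A second probe set followed the first, with a WT minus Null difference of -2.32 ± 0.50, and the third was nearly flat, with a difference of -0.19 ± 0.11 on levels between 5.98 and 6.997.

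Adcy8 lay at 6.35, 7.47 and 8.14 (lowest, median and highest) in Null and at 5.03, 6.71 and 7.30 in WT. It was highest in QM, at 8.87, 8.51 and 8.51, followed by 25,26 at 7.93, 8.38, 7.68, 7.79 and 8.02, and it lay at 7.29, 7.46 and 7.38 in 53,54. QM stood above every other array, and Null overlapped 25,26, 53,54 and WT. The difference of WT was -2.28 ± 0.41 from QM, -1.61 ± 0.35 from 25,26 and -1.06 ± 0.33 from Null, and that of QM from Null was 1.22 ± 0.41. The difference from Null depended on the cells compared. It was -0.44 with LSL-WT Cre alone as WT and -1.68 with WT Cre alone, and -0.52 with Null Cre alone as Null and -1.60 with LSL-WT Empty alone. Likewise QM minus Null was 1.76 against Null Cre alone and 0.68 against LSL-WT Empty alone.

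Fndc4, Nfib and Pcdh18 had a different order, with 25,26 below Null. Fndc4 lay at 7.64, 8.27 and 8.89 (lowest, median and highest) in Null, at 5.89, 6.87 and 6.98 in WT, at 7.83, 8.57 and 7.90 in QM, at 7.40, 7.46, 7.13, 6.59 and 6.89 in 25,26 and at 7.30, 6.20 and 6.88 in 53,54. Null and QM overlapped, and 25,26, 53,54 and WT overlapped in a block below them. The difference of WT was -1.43 ± 0.29 from QM, -1.57 ± 0.24 from Null and -0.42 ± 0.25 from 25,26.

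Nfib lay at 10.02, 10.12 and 10.77 (lowest, median and highest) in Null and at 8.78, 9.30 and 9.51 in WT. Its levels were 9.84, 10.19 and 9.75 in QM, 9.47, 9.41, 9.55, 9.52 and 9.24 in 25,26 and 9.14, 8.53 and 8.84 in 53,54. QM overlapped Null, 25,26 lay below both and overlapped WT, and 53,54 lay below 25,26 and overlapped WT. The difference of WT was -0.67 ± 0.17 from QM, -0.18 ± 0.15 from 25,26 and -1.01 ± 0.14 from Null. Nfib and Pcdh18 were the genes whose mean was lowest in 53,54 and not in WT, with 53,54 minus WT at -0.42 ± 0.17 for Nfib and -0.17 ± 0.20 for Pcdh18. Of its 7 probe sets, the 5 brightest ran alike, 1 was flat between 5.61 and 6.17, and 1 lay near the filter.

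Pcdh18 lay at 8.60, 8.74 and 9.00 (lowest, median and highest) in Null and at 7.32, 7.92 and 8.52 in WT. It lay at 8.52, 8.16 and 8.73 in QM, at 8.30, 7.71, 7.72, 8.05 and 7.97 in 25,26 and at 7.66, 7.77 and 7.67 in 53,54. The 53,54 arrays were tight, WT spread over 25,26 and into QM, and Null and QM overlapped. The difference of WT was -0.60 ± 0.20 from QM, -0.89 ± 0.16 from Null and -0.08 ± 0.17 from 25,26, the smallest of the 7.

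**Figure D1:**
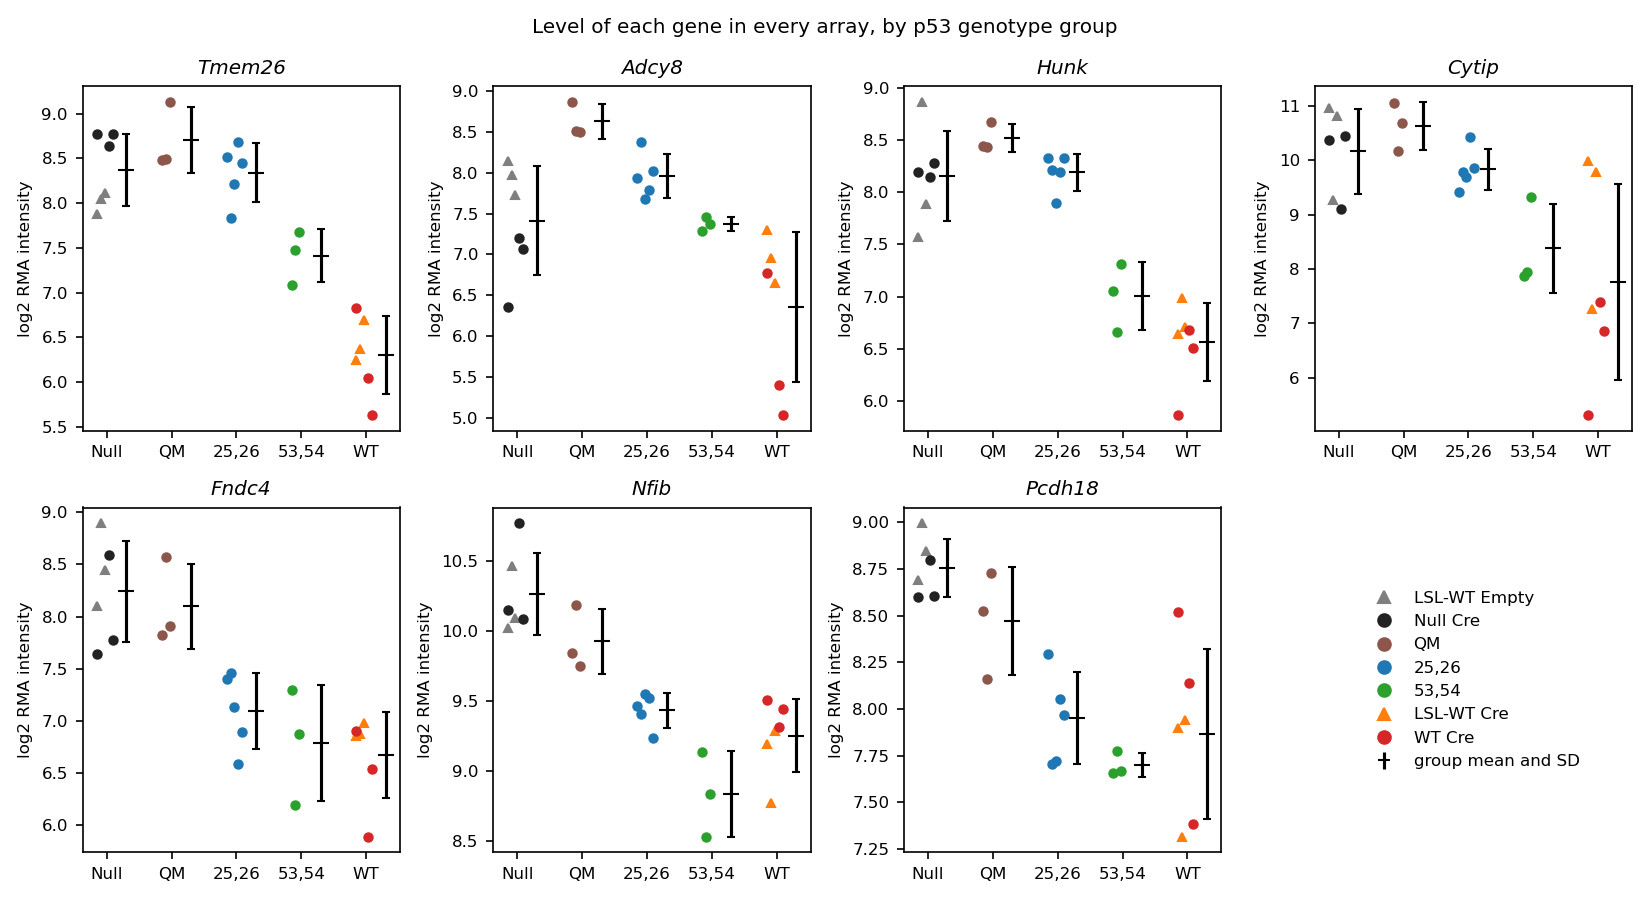
Log2 RMA intensity (vertical axis) of each gene in each of the 23 arrays by group, with points by kind of cells and bars for the group mean and SD. The WT mean lies below the Null mean in all 7 panels, with overlapping arrays for Cytip and Adcy8. The 25,26 arrays lie with Null for Tmem26, Hunk and Cytip, and below Null for Fndc4, Nfib and Pcdh18.

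Set against Null, the 7 genes thus gave different values in 25,26. The 25,26 minus Null difference was -0.03 ± 0.22 for Tmem26, 0.03 ± 0.19 for Hunk, -0.33 ± 0.61 for Cytip and 0.55 ± 0.35 for Adcy8. For Tmem26 it was -0.38 against Null Cre alone, 0.33 against LSL-WT Empty alone and -0.32 ± 0.16 in its second probe set. Against Null Cre alone the Adcy8 value was 1.09 and against LSL-WT Empty alone 0.01, and with the Xist level as a covariate the Cytip value was 0.59 ± 0.55. The 25,26 minus Null difference was -1.15 ± 0.25 for Fndc4, -0.83 ± 0.15 for Nfib and -0.81 ± 0.17 for Pcdh18. The last 3 fell beside a background in which 195 of 15266 genes (1.28%) passed the test as lower in 25,26 and 3.02% as higher, and nothing is read from that here, since 25,26 arrays helped choose the genes. In QM minus Null the values ran from -0.34 ± 0.17 for Nfib to 1.22 ± 0.41 for Adcy8, where 0.0131% of all genes passed as higher and 0% as lower (limma, 2 genes at the adjusted threshold). These comparisons and those below share the Null arrays.

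**Figure D2:**
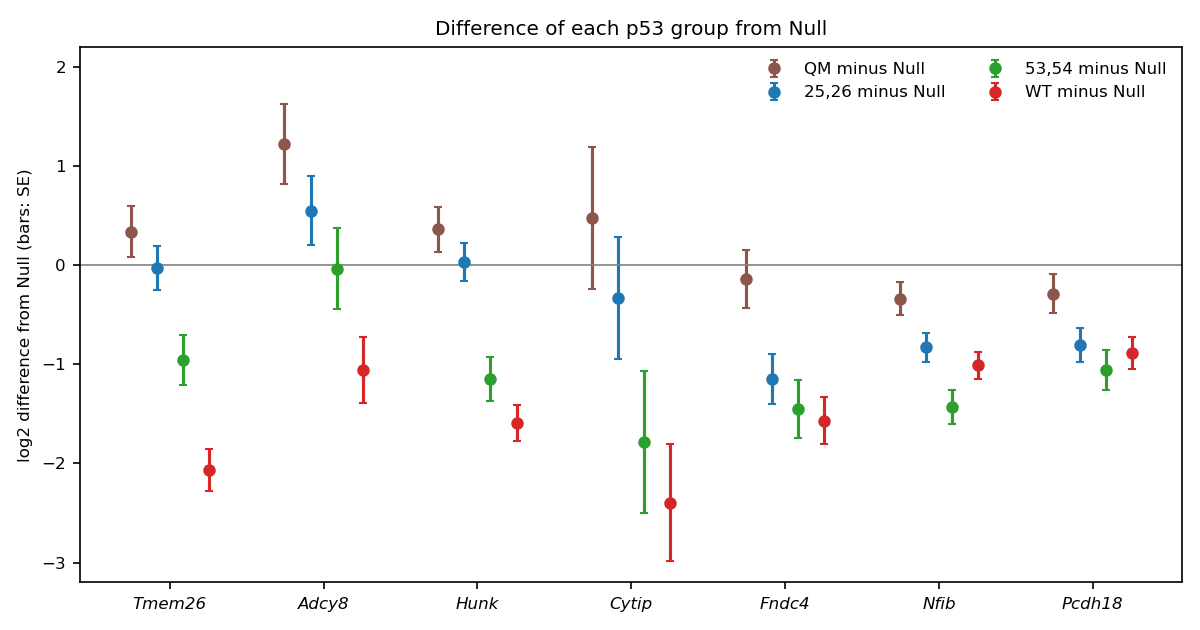
Log2 difference from Null (vertical axis) for each gene in QM, 25,26, 53,54 and WT, with SE bars. Values in 53,54 and WT lie below 0 for all 7 genes, with Adcy8 at -0.03 in 53,54, while those in 25,26 lie near or above 0 for Tmem26, Hunk and Adcy8.

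The comparison of 53,54 with Null used no array of the rule. It asks whether cells whose p53 keeps its first transactivation domain also have less of these RNAs. Tmem26, Hunk, Fndc4, Nfib and Pcdh18 fell in 53,54, and no member rose, so 5 of 7 passed as lower where 10.3% of all 15266 genes did (9.22% passed as higher). The same 5 were lower in every 53,54 array than in every Null array, which held for 10.4% of all genes. The test was limma with Benjamini-Hochberg adjustment over all genes at 0.05. Fndc4, Nfib and Pcdh18 had also been seen lower in 25,26 than in the same Null arrays before they were taken up here, so these 3 are less independent of the choice than the others.

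Nfib fell by 1.43 ± 0.17, with a limma adjusted p of 3.11e-06, a 2.69-fold lower intensity. Fndc4 fell by 1.45 ± 0.29 (limma adjusted p = 0.000939), Hunk by 1.15 ± 0.22 (0.000674) and Pcdh18 by 1.06 ± 0.20 (0.000507). Tmem26 fell by 0.96 ± 0.26, with a limma adjusted p of 0.00967, and this call was lost without array 53,54 2 (-0.79, limma adjusted p = 0.0788). Against LSL-WT Empty alone the Tmem26 difference was -0.60 (limma adjusted p = 0.155), and against Null Cre alone it was -1.31 (limma adjusted p = 0.00229).

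Cytip and Adcy8 did not pass. Cytip differed by -1.78 ± 0.72, the most of the 7, with a limma adjusted p of 0.0913, and its array 53,54 4 at 9.33 lay within the Null range. It passed with array weights (-2.25, limma adjusted p = 0.00323) and when the 53,54 and Null arrays were fitted alone (limma adjusted p = 0.0264). Adcy8 differed by -0.03 ± 0.41 (limma adjusted p = 0.972), and its value turned from -0.57 against LSL-WT Empty to 0.50 against Null Cre. The median of the 7 was -1.15 against -0.02 for all genes. With the title number as a block, 5 of 7 passed again, while the count over all genes rose from 2986 to 4847.

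By probe set, 13 of the 19 passed as lower in 53,54, none passed as higher, and 8.66% of 28087 probe sets passed as lower. The 6 that did not pass were those of Adcy8, all 3 of Cytip and 2 of Nfib. The flat Nfib probe set gave -0.05 ± 0.12 and the dim one -0.54 ± 0.25, against -1.09 to -1.43 for the other 5. The 3 of Pcdh18 gave -1.06 ± 0.20, -1.40 ± 0.24 and -0.83 ± 0.22, and the 2 of Fndc4 gave -1.45 ± 0.29 and -1.26 ± 0.20.

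**Figure D3:**
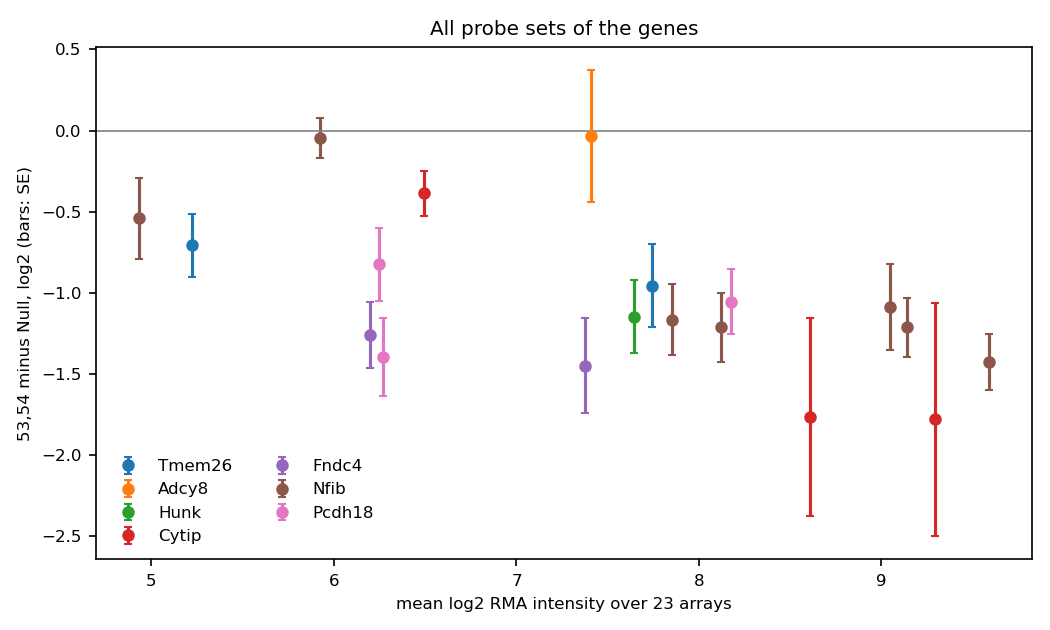
53,54 minus Null log2 difference (vertical axis, SE bars) of each of the 19 probe sets against its mean log2 intensity over 23 arrays (horizontal axis). Most points lie between -0.7 and -1.8, and the Adcy8 probe set and 1 Nfib probe set lie near 0.

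Mitosis genes moved across the same groups. All 19 measured members of the list fell in 53,54 and in WT against Null (limma, adjusted p below 0.05), with medians of -2.04 and -1.79, and their mean level ran from 8.28 to 9.52 in the 53,54 arrays, from 7.83 to 9.56 in WT, from 9.54 to 10.54 in 25,26, from 10.57 to 10.89 in QM and from 10.55 to 10.92 in Null. The ranges in WT and 53,54 did not overlap those in QM and Null. A fit with this mean as a covariate therefore cannot separate its level from the group. In WT minus Null 11.8% of all genes passed as lower and 10.9% as higher. With the mean level of the list as a covariate, Hunk (-1.29 ± 0.38, limma adjusted p = 0.0317), Fndc4 (-1.75 ± 0.49, 0.0255) and Nfib (-1.23 ± 0.28, 0.0109) stayed lower in 53,54, and the calls of Tmem26 (-0.28 ± 0.39, 0.679) and Pcdh18 (-0.25 ± 0.25, 0.548) were lost. The Cytip value became -0.41 ± 1.15 and the Adcy8 value -0.04 ± 0.69. Described values of Tmem26, Fndc4, Nfib, Pcdh18 and Cytip moved as well. For Tmem26, WT minus Null went from -2.06 to -1.46 ± 0.33 and WT minus QM from -2.40 to -1.81 ± 0.36. Its WT minus 25,26 value went from -2.04 to -1.61 ± 0.28. WT minus Null went from -1.57 to -1.83 ± 0.42 for Fndc4 and from -1.01 to -0.84 ± 0.24 for Nfib. For Pcdh18, WT minus Null went from -0.89 to -0.18 ± 0.22, WT minus QM from -0.60 to 0.10 ± 0.23 and WT minus 25,26 from -0.08 to 0.43 ± 0.18. For Cytip these values became -1.19 ± 0.99, -1.68 ± 1.06 and -1.20 ± 0.83. The WT minus QM differences of Hunk and Adcy8 were -2.07 ± 0.35 and -2.28 ± 0.63.

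**Figure D4:**
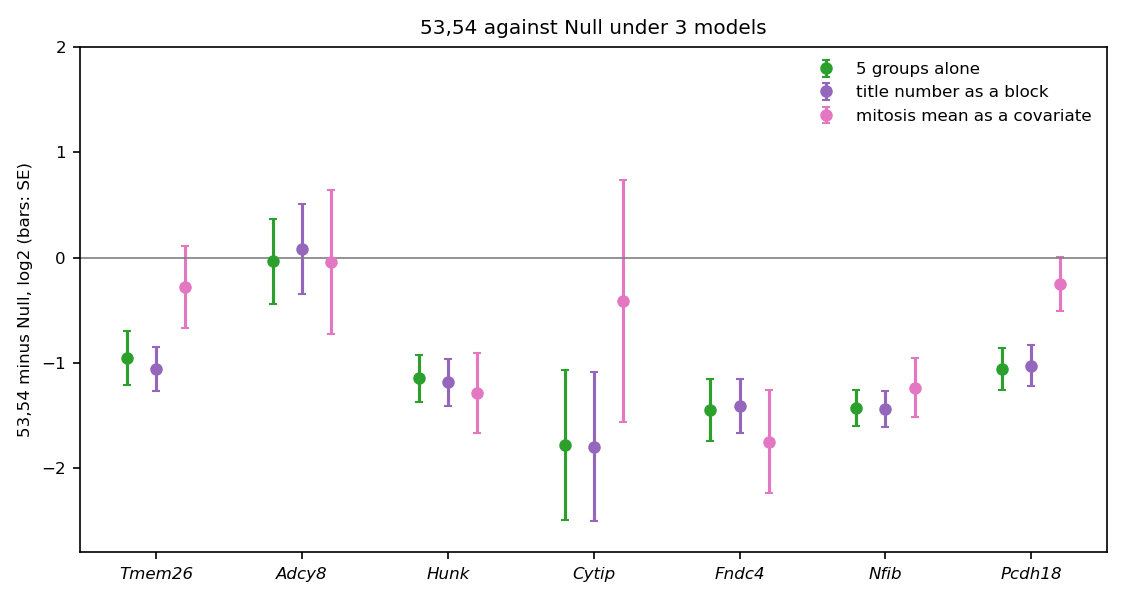
53,54 minus Null log2 difference (vertical axis, SE bars) of each gene with the 5 groups alone, with title numbers as a block and with the mean level of the mitosis list as a covariate. The covariate moves Tmem26, Cytip and Pcdh18 toward 0 and leaves Hunk, Fndc4 and Nfib below -1.2.

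Both kinds of WT cells had lower means than the cells without p53 set against them for all 7 genes. LSL-WT Cre and LSL-WT Empty were the same kind of cells given different virus, whereas WT Cre and Null Cre differed in genotype. LSL-WT Cre minus LSL-WT Empty ran from -0.98 ± 0.32 for Adcy8 to -1.58 ± 0.32 for Fndc4, and WT Cre minus Null Cre from -0.65 ± 0.23 for Pcdh18 to -3.45 ± 0.65 for Cytip. The Pcdh18 value in WT Cre minus Null Cre was -0.34 without WT Cre 2 and -0.03 with the mitosis covariate, under which its LSL-WT value went from -1.12 to -0.39. The Cytip value in LSL-WT Cre minus LSL-WT Empty, -1.33 ± 0.65, was -0.46 without LSL-WT Cre 2, -2.26 with WT Cre 3 counted as LSL-WT Cre and 0.38 ± 0.83 with the mitosis covariate. The Cytip value in WT Cre minus Null Cre was -2.29 when its probe sets were averaged and -1.99 with that covariate. With the Xist level as a covariate it was -2.40 ± 0.60, and the Cytip value in WT minus Null was -1.76 ± 0.50. For Tmem26 the mitosis covariate gave -0.85 ± 0.31 in LSL-WT Cre minus LSL-WT Empty and -1.94 ± 0.29 in WT Cre minus Null Cre, against -1.57 and -2.56 without it. The difference between the LSL-WT and WT values passed for 0 of the 7 genes, where 0.00655% of all genes passed (limma, 2 of the 7 and 1193 of all genes at an unadjusted p under 0.05). It was 0.99 ± 0.36 for Tmem26 (limma adjusted p = 0.447) and 2.12 ± 0.92 for Cytip (limma adjusted p = 0.590).

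Adcy8 and Cytip had the widest differences between the means of the 2 kinds of WT cells, and for both the arrays of the 2 kinds overlapped. Adcy8 lay at 7.30, 6.96 and 6.65 in LSL-WT Cre and at 5.40, 5.03 and 6.78 in WT Cre. Cytip lay at 9.98, 7.27 and 9.79 in LSL-WT Cre and at 7.40, 6.86 and 5.31 in WT Cre. WT Cre 3, with the label at odds with its title, was the high WT Cre array for Adcy8 and the low one for Cytip. Neither passed the test of LSL-WT Cre minus WT Cre, with 1.24 ± 0.32 for Adcy8 (limma adjusted p = 0.0718) and 2.49 ± 0.65 for Cytip (limma adjusted p = 0.0793). With limma 0 of the 7 genes passed, against 0.983% of all genes in either direction (2 of the 7 and 1775 of all genes at an unadjusted p under 0.05).

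Both passed with the title number as a block, Adcy8 at a limma adjusted p of 0.0346 and Cytip at 0.0130. Adcy8 also passed when WT Cre 3 was left out (1.76, limma adjusted p = 0.000949) or counted as LSL-WT Cre (1.71, limma adjusted p = 0.000843). Cytip also passed without LSL-WT Cre 2 (3.36, limma adjusted p = 0.0127), with array weights (3.05, 0.0141) and with the mitosis covariate (2.71, 0.0174). For the other 5 genes the difference ran from -0.34 ± 0.19 for Nfib to 0.46 ± 0.32 for Fndc4, with no call.

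Among cells without p53, Adcy8 lay at 8.14, 7.98 and 7.73 in LSL-WT Empty and at 7.21, 7.06 and 6.35 in Null Cre, and Tmem26 at 7.88, 8.04 and 8.11 and at 8.64, 8.77 and 8.77. The arrays of the 2 kinds did not overlap for these genes, with Null Cre lower for Adcy8 and higher for Tmem26. How many of all genes separate in this way was not counted, so nothing is read from it. Null Cre minus LSL-WT Empty was -1.08 ± 0.32 for Adcy8 (limma adjusted p = 0.274) and 0.71 ± 0.26 for Tmem26 (limma adjusted p = 0.445). With limma 0 of the 7 passed, against 0.216% of all genes (2 of the 7 and 1102 of all genes at an unadjusted p under 0.05), and among the settings run Adcy8 passed only where WT Cre 3 was counted as LSL-WT Cre (limma adjusted p = 0.0403).

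The high and low Cytip arrays did not follow strain in 1 direction. Mixed arrays were the high ones in LSL-WT Cre, LSL-WT Empty and QM and the low ones in 53,54 (7.87 and 7.95, against 9.33 for the 129 array) and WT Cre (5.31 for WT Cre 3). Title number 2 was the lowest Cytip array in LSL-WT Cre (7.27), LSL-WT Empty (9.27), Null Cre (9.11), QM (10.16) and 53,54 (7.87), but not in 25,26 or WT Cre. The 53,54 minus Null difference of Cytip was -1.95 (limma adjusted p = 0.0632) with the strain as a covariate and -1.80 (limma adjusted p = 0.0630) with the title number as a block.

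Across the 23 arrays, pairs of the 7 genes correlated with Pearson's r from 0.20 (Adcy8 and Nfib) to 0.87 (Tmem26 and Hunk), a description of arrays that share the groups. Fndc4 and Nfib gave 0.83, and 0.74 after the mean of each kind of cells was taken away, whereas Tmem26 and Hunk gave -0.09 after that. The genes most like each member over the 23 arrays were H2az2 for Tmem26 (r = 0.90), Bex1 for Hunk (0.93), Smyd3 for Cytip (0.90), Suclg2 for Adcy8 (0.88), Lmnb2 for Fndc4 (0.92), Samhd1 for Nfib (0.95) and Alg6 for Pcdh18 (0.91). Fkbp5 was among the 3 most alike for both Nfib (0.92) and Pcdh18 (0.91).

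Relatives of the 7 genes were counted in lists, against the shares of all genes given above. Of 16 kinases related to Hunk, 3 rose and 2 fell in WT against Null, and 2 rose and 1 fell in 53,54. Nuak2 rose by 1.44 ± 0.28 in WT (limma adjusted p = 0.00052). Prkaa2, a catalytic subunit of the AMP-activated kinase, rose by 0.64 ± 0.13 in WT and by 1.44 ± 0.16 in 53,54 (limma adjusted p = 0.000928 and 1.07e-06), and Mark3 rose by 0.37 ± 0.08 and 0.60 ± 0.10 (limma adjusted p = 0.00195 and 0.000161). Melk, a mitotic kinase, fell by 1.73 ± 0.33 in WT and 1.97 ± 0.41 in 53,54 (limma adjusted p = 0.000563 and 0.00123), and Mark1, named after its value was seen, fell by 0.30 ± 0.08 in WT (limma adjusted p = 0.0113). With the mitosis covariate the WT calls of Nuak2 (0.17), Prkaa2 (0.22) and Mark3 (0.07) and the 53,54 call of Mark3 (0.25, limma adjusted p = 0.246) were lost, and the Melk values turned to 0.40 and 0.44.

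Of 23 tested genes of cAMP signalling other than Adcy8, 1 rose and 4 fell in WT and 2 rose and 2 fell in 53,54. Adcy2, another adenylyl cyclase, rose by 1.41 ± 0.12 in WT, 0.83 ± 0.13 in 25,26 and 2.09 ± 0.15 in 53,54 (limma adjusted p = 3.74e-08, 0.000319 and 2.03e-09). Creb1, a transcription factor that responds to cAMP, fell by 0.63 ± 0.13 in WT, and Prkar2b, a regulatory subunit of protein kinase A, fell by 0.64 ± 0.16 (limma adjusted p = 0.00105 and 0.00565). Pde7a, a phosphodiesterase that degrades cAMP, fell in WT by 0.36 ± 0.09 and Prkacb, a catalytic subunit of protein kinase A, by 0.45 ± 0.15 (limma adjusted p = 0.00675 and 0.0323). In 53,54 Crem rose by 0.49 ± 0.13, Creb1 fell by 0.47 ± 0.16 and Adcy3 fell by 0.43 ± 0.14 (limma adjusted p = 0.0101, 0.0435 and 0.0363). Prkacb and Adcy3 were named after their values were seen. The Crem call was lost when probe sets were averaged (0.24, limma adjusted p = 0.168), with Null Cre alone as Null (0.41) and without 53,54 3 or 53,54 4 (0.46 and 0.42), the Creb1 call in 53,54 was lost without any array of the comparison other than LSL-WT Empty 1 (-0.53 to -0.42), and the Pde7a and Prkar2b calls were lost with LSL-WT Cre alone as WT (-0.27 and -0.42). With the mitosis covariate the Creb1 call in 53,54 (-0.58) and the Prkar2b call (-0.64) were lost, and Crem passed as higher in WT (0.64, limma adjusted p = 0.0180).

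None of the 3 other nuclear factor I genes passed in WT or 53,54, and Nfix gave -0.39 ± 0.17 in WT (limma adjusted p = 0.112). With the mitosis covariate Nfic passed as lower in WT (-1.27, limma adjusted p = 0.0185), 53,54 (-1.54, 0.0140) and 25,26 (-0.80, 0.0337), against values of -0.03, -0.14 and -0.45 without it. Nfix passed as lower in WT with the strain as a covariate (-0.44, limma adjusted p = 0.0492) and in 53,54 with array weights (-0.38, limma adjusted p = 0.0413). Nfia rose by 0.53 ± 0.12 in 25,26 (limma adjusted p = 0.0125), a call lost when its probe sets were averaged or Null Cre stood alone as Null. Of 9 other protocadherins of the Pcdh18 class, 2 rose in WT, Pcdh1 by 1.10 ± 0.33 and Pcdh8 by 1.31 ± 0.41, and Pcdh8 rose in 53,54 by 1.64 ± 0.50 (limma adjusted p = 0.0192, 0.0237 and 0.0239). The WT call of Pcdh1 was lost without Null Cre 4 (0.96) and its value turned to -0.49 with the mitosis covariate. The WT call of Pcdh8 was lost without LSL-WT Cre 1 (1.20), WT Cre 2 (1.18), LSL-WT Empty 2 (0.96) or Null Cre 4 (1.24), and its 53,54 call without 53,54 2 (1.46) or 53,54 3 (1.65). Both Pcdh8 calls were lost with the mitosis covariate (0.82 in WT and 1.09 in 53,54).

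Of 8 relatives of Fndc4, Fndc10 rose in WT by 0.77 ± 0.11 (limma adjusted p = 2.28e-05), a call lost with the mitosis covariate (0.46), and none fell. Of 9 tested genes of the cytohesin and Arf pathway, Cyth1, the binding partner of the Cytip protein, rose by 0.30 ± 0.09 in WT and 0.38 ± 0.12 in 53,54 (limma adjusted p = 0.0252 and 0.0221). These calls were lost when probe sets were averaged (0.30 ± 0.13 and 0.32 ± 0.15, differences about as large with a wider SE) and with the mitosis covariate (0.05 and 0.10), the WT call also without any of 6 single arrays (LSL-WT Cre 2, WT Cre 2, WT Cre 3, LSL-WT Empty 1, Null Cre 2 and Null Cre 4, 0.27 to 0.28) and the 53,54 call without 53,54 3 (0.27). Cyth1 also rose in 25,26 by 0.39 ± 0.10 (limma adjusted p = 0.0249). This call was lost, among other settings, when probe sets were averaged (0.22) and with the mitosis covariate (0.32). In QM the Cyth1 difference from Null was 0.34 ± 0.12 and did not pass. Itgb2, an integrin subunit of leukocytes, rose in 53,54 by 0.33 ± 0.10 (limma adjusted p = 0.0269), a call lost without 53,54 3 or 53,54 4 (0.26 and 0.33) and without LSL-WT Empty 1 or LSL-WT Empty 2 (0.31 and 0.30). Of 8 beige adipocyte markers other than Tmem26, none passed in WT, and Ppargc1a and Slc27a1 rose in 53,54, by 0.82 ± 0.24 and 0.80 ± 0.23 (limma adjusted p = 0.016 and 0.0177), calls lost without 53,54 2 (0.72 and 0.77) or 53,54 4 (0.74 and 0.71). Slc27a1 also rose in 25,26 by 0.98 ± 0.20 (limma adjusted p = 0.00501), a call lost with LSL-WT Empty alone as Null (0.91). With LSL-WT Cre alone as WT, Ppargc1a and Slc27a1 passed as higher in WT (0.78 and 0.72, limma adjusted p = 0.0101 and 0.00202). Slc27a1 did so too without WT Cre 3 (0.60, limma adjusted p = 0.00152). With the mitosis covariate the 53,54 calls of Itgb2 (0.26), Ppargc1a (0.34) and Slc27a1 (0.62) were lost. Cyth3 passed as lower with the strain as a covariate, in WT (-0.20, limma adjusted p = 0.0283) and in 53,54 (-0.24, limma adjusted p = 0.0406). With the 5 groups alone in the model, in WT, 25,26, QM and 53,54 no relative in the nuclear factor I, protocadherin, Fndc4, cytohesin or beige adipocyte lists passed as lower. Blocking on the title number added calls among the named relatives. In WT these were Nfix (-0.40), Cited1 (-0.24), Pcdh9 (0.50), Fndc3b (0.34) and Crem (0.32), in 53,54 Nuak2 (0.98), Pcdh9 (0.46) and Fndc10 (0.29), and in 25,26 Melk (-0.71) and Prkaa2 (0.52), with limma adjusted p from 0.00273 to 0.0403.

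As a check of the labels, 12 of 12 known p53 target genes rose in WT and in 53,54, 11 in 25,26 and 1 in QM. All 12 fibroblast markers lay above the filter in every array. Of the 8 leukocyte markers measured, 6 lay above the filter in every array. The other 2, Cd3g and Ptprc, the defining leukocyte antigen, lay below it in all arrays. The summed level (log2 of summed intensities) of the 8 ran from 8.66 to 8.93 over all groups, while Cytip ran from 5.31 to 11.05. The summed level of 9 macrophage markers was 9.88 to 10.06 in 53,54, 9.04 to 9.95 in WT and 9.05 to 9.39 in Null, and 4 of its 9 genes lay above the filter in every array of each of these groups. Of 8 epithelial markers the summed level was 12.13 to 12.88 in WT, 12.39 to 12.73 in 53,54, 11.75 to 12.87 in 25,26, 11.79 to 12.25 in QM and 10.92 to 12.10 in Null, with 6 to 8 of the 8 above the filter in every array of a group. Of 7 endothelial markers it was 9.00 to 9.41 in WT, 9.14 to 9.51 in 53,54, 8.79 to 9.03 in 25,26, 8.67 to 8.96 in QM and 8.54 to 8.84 in Null, with 3 of the 7 above the filter in every array and the defining antigen Pecam1 below it in all arrays. Of 8 muscle markers it was 10.39 to 12.33 in WT, 10.19 to 10.63 in 53,54, 9.52 to 10.32 in 25,26, 9.86 to 10.03 in QM and 9.52 to 10.29 in Null, with 6 of the 8 above the filter in every array. The epithelial and endothelial sums in WT and 53,54 thus lay above those in Null with no overlap, as did the muscle sum in WT. The brightest genes weigh most in such a sum, and the genes of a list did not move alike. In the muscle list Acta1 lay at 9.82 to 12.20 in WT and 8.40 to 9.69 in Null. Tnnt1 was lower in WT (5.29 to 5.91) than in Null (6.28 to 7.01). In the endothelial list Eng lay at 7.99 to 8.50 in WT and 7.16 to 7.73 in Null, whereas Pecam1 and Emcn overlapped. In the epithelial list Krt19 lay at 8.76 to 10.12 and 6.02 to 8.68, whereas Krt5 overlapped. Of 5 measured adipocyte markers the summed level was 10.45 to 10.96 in WT, 10.80 to 11.06 in 53,54, 10.82 to 11.35 in 25,26, 11.07 to 11.32 in QM and 10.75 to 11.19 in Null. It was thus lower in WT than in QM with no overlap, and 3 or 4 of the 5 lay above the filter in every array of a group. The sum of 10 neural markers overlapped between all groups, at 11.58 to 12.30 in WT and 11.49 to 12.24 in Null. The part of these markers in the differences of the 7 genes was not tested. Xist exceeded log2 8 in 4 of the 5 arrays of 25,26, in 1 of 3 in 53,54, in 2 of 3 in QM, in 4 of 6 in WT and in 1 of 6 in Null. The p53 and H-Ras transcripts are not analysed here.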

How the data were processed

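RNA of 23 cultures was measured on Affymetrix arrays. The deposited values are intensity on a linear scale (8.55 to 32042) that the authors made with RMA, per the submitters' processing notes. The version and options of RMA are not given in the sources used here, and the number of arrays limits the precision. The values were taken to log2. Array medians lay between 59.9 and 64.2, with no rescaling here.

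Of 45101 probe sets, 64 controls were left out; 34945 carried 1 gene symbol, 932 several and 9160 were unlisted. The brightest probe set on average stood for its gene, which was tested when 3 or more arrays lay above the 30th percentile (log2 4.79). Models of 5 groups and of 7 kinds of cells were fitted with limma 3.58.1 in R 4.3.3, two-sided, with Benjamini-Hochberg adjustment over 15266 genes at 0.05. The method was tested on simulated data.

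The members, lists, tests and alternatives were chosen with earlier results of these data known. Named genes were all members, the 3 genes most correlated with each, and up to 4 genes per list with the largest moderated statistic in WT minus Null and up to 2 in 53,54 minus Null; of these, the text gives the leading ones. The replicate numbers of the titles pair arrays: residuals of same-number arrays correlated above 0.1 in every pair (53,54 with Null: 5 of 5 pairs, median 0.36 against -0.19 for other numbers; WT with Null: 10 of 10; LSL-WT Cre with WT Cre: 3 of 3). The origin of the pairing is not stated in the labels. Alternatives changed filters, probe sets, normalization, covariates, blocking, weights, variance priors, the arrays fitted, the Null and WT arrays used and single arrays; counting WT replicate 6 (WT Cre 3) as LSL-WT Cre was chosen after seeing the data.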

Additional observations from a re-analysis of the deposited data

How the results depend on the processing

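Over 25 settings of 53,54 minus Null, Hunk, Fndc4 and Nfib passed in 25, Pcdh18 in 24, Tmem26 in 22, Cytip in 2 and Adcy8 in 0. The number of members called was 5, 3 with the mitosis covariate and 4 to 5 with single arrays left out. Over all tested comparisons of the members, 644 values kept their call or their lack of one, 10 gained a call, 4 lost one and none reversed. Of described values, Pcdh18 in WT minus QM turned to 0.095, Pcdh18 in WT minus 25,26 to 0.427, and Cytip in LSL-WT Cre minus LSL-WT Empty to 0.384 with the mitosis covariate, as did Melk in 53,54 minus Null (0.438) and WT minus Null (0.398) and Pcdh1 in WT minus Null (-0.489). The cause was not tested.

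LSL-WT Cre minus WT Cre gave 0 members, 2 with the title number as a block, 1 with the mitosis covariate, with array weights or with WT replicate 6 counted as LSL-WT Cre, and 0 to 1 with single arrays left out. Null Cre minus LSL-WT Empty gave 1 member with WT replicate 6 so counted. The block changed no other call of a member.

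Counts over all genes depended on the setting. For 53,54 minus Null (2986) they were 4681 over all probe sets, 4847 with the block, 1779 with the mitosis covariate, 5457 with array weights and 1923 to 2985 with single arrays left out (1923 without 53,54 replicate 3). For WT minus Null (3465) they were 5475 over all probe sets and 1806 with the mitosis covariate, and 3036 to 3472 with single arrays left out. For 25,26 minus Null (656) they were 2167 with the block, 346 with Xist, 1435 with array weights, 422 with Null Cre alone as Null and 415 to 593 with single arrays left out. For QM minus Null (2) they were 7 with array weights, 0 with the compared arrays alone, 23 with Null Cre and 1 with LSL-WT Empty alone as Null, and 0 to 2 with single arrays left out. For LSL-WT Cre minus WT Cre (150) they were 258 over all probe sets, 1359 with the block, 312 with the mitosis covariate, 0 with the compared arrays alone and 23 to 277 with single arrays left out. For Null Cre minus LSL-WT Empty (33) they were 19 with strain, 75 with the block, 78 with the mitosis covariate, 177 with array weights, 0 with the compared arrays alone and 1 to 41 with single arrays left out. For the difference between the WT parts (1) they were 2 with averaged probe sets, 3 over all probe sets, 12 with quantile normalization, 13 with median centring, 9 with strain, 245 with the block, 0 with Xist, 26 with the mitosis covariate, 24 with array weights, 0 with the compared arrays alone, 18 with WT replicate 6 counted as LSL-WT Cre and 0 to 47 with single arrays left out. Among values of list genes and list counts, 5550 kept their call, their lack of one or a like count. A further 150 counts moved, 117 values lost a call, 41 gained one and 3 reversed.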
